A study of Mus musculus with 3 samples.

Results

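The genes described here encode the subunits of voltage-gated calcium, sodium and potassium channels and of related channels that carry the same gene names. All protein-coding genes of the mm9 annotation whose symbol begins with *Cacna1*, *Cacna2d*, *Cacnb*, *Cacng*, *Scn* and a digit, or *Kcn* were taken. They numbered 137 gene entries among 22359 nuclear protein-coding entries, and held 134 symbols, because *Kcnb2*, *Scn8a* and *Kcnh8* are each annotated as more than 1 entry. The name is wider than the function. 63 entries encode the pore-forming subunit of a voltage-gated channel and 36 encode an auxiliary subunit, whereas 29 encode inward rectifier or two-pore potassium channels and 8 encode potassium channels of the calcium- and sodium-activated families, which are gated wholly or partly by other signals. The 63 include electrically silent modulatory subunits, such as *Kcns2* and *Kcng3*. 1 entry outside these classes, *Kcnrg*, is named as a regulator of potassium channels. The entries comprised 96 potassium, 26 calcium and 15 sodium channel genes.

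The measurement was CHART-Seq of *Dali*, a long non-coding RNA transcribed near the transcription factor gene *Pou3f3*. In CHART-Seq, biotinylated oligonucleotides capture an RNA together with the genomic DNA cross-linked to it, and this DNA is sequenced. The single group comprised 3 *Dali* pull-downs from N2A, a mouse neuroblastoma cell line, each made from 300000000 cells with 810 pmol of capture oligonucleotides, and no genotype or drug treatment distinguished them. The authors combined the pull-downs, which used different mixtures of capture oligonucleotides, into a list of 1427 regions (peaks) found against both input DNA and pull-downs made for *lacZ*. Each peak carries 1 score, whose unit is not named in the sources used here. The list gives no value per pull-down and no read count, so the depth is unknown, no spread between pull-downs can be given, and no test between conditions is possible. The counts below run over genes and peaks, which are not replicates, and their intervals cover counting error only.

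Voltage-gated channels open when the membrane depolarises. Sodium channels carry the upstroke of the action potential, potassium channels end it and set the resting potential, and calcium channels couple electrical activity to secretion and gene expression. Their pore-forming subunits assemble with auxiliary subunits that set surface expression and gating, and many of their genes are long and start from several alternative transcription start sites (TSSs).

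7 peaks lay inside 6 of the 137 entries (4.38%), beside 2.63% of all protein-coding genes with a peak inside. Sequence is shown for 3 of them, namely both peaks of *Kcnip3*, which hold matches to known words, and the peak with the highest score (in *Cacna1c*). All are read from mm9 on the minus strand, which is the coding strand of these genes, from 5′ to 3′. The lower-scoring *Kcnip3* peak is given whole (chr2:127288043-127288321). Capitals mark a match, with 1 mismatch, to the consensus sequence bound by CTCF, a zinc finger protein that organises chromatin loops, which lies on the plus strand and reads CCACAAGAGGGCG there. It overlaps a match to the GC box, GGGCGG.
Kcnip3 intron 5: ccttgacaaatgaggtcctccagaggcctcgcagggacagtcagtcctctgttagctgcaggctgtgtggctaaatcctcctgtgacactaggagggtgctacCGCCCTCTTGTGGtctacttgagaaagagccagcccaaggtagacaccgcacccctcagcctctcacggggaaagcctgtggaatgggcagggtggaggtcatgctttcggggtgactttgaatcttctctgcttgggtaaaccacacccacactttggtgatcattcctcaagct
From the higher-scoring *Kcnip3* peak, 200 bases are given (chr2:127337110-127337309). Capitals mark the POU octamer, the word recognised by POU domain transcription factors such as POU3F3, which reads ATGCAAAT on the plus strand.
Kcnip3 intron 1: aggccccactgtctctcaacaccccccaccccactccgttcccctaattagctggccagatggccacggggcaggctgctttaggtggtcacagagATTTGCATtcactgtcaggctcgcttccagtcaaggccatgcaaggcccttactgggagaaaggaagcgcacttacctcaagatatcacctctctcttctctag
From the *Cacna1c* peak, the central 200 bases are given (chr6:118674964-118675163). Capitals mark CpG, the dinucleotide at which mammalian DNA is methylated, which occurred 1 time in this stretch and 5 times in the whole peak.
Cacna1c: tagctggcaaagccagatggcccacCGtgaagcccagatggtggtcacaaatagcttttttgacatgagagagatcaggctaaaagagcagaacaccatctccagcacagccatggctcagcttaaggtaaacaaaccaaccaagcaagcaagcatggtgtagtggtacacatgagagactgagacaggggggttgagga

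Among the calcium channel pores, *Cacna1c* and *Cacna1g* each held 1 peak. *Cacna1c* (chr6:118542314-119146249, minus strand) encodes the pore of an L-type channel, the class that opens at strong depolarisation and signals to the nucleus in neurons. Its peak (chr6:118674821-118675306) had a score of 82.56, rank 5 of the 1427 peaks. It lay in intron 9 of a transcript with 47 exons, 471 kb from the outermost start of the gene, or 78.0% of the way along it. The gene has 4 annotated protein-coding starts, and the innermost was 26.4 kb upstream of the peak midpoint. The GC content of the peak was 44.9%, against a mean of 48.6% in regions of the same width 5 kb to either side. *Cacna1g* (chr11:94269705-94335414, minus strand) encodes a T-type pore, which opens near the resting potential. Its peak (chr11:94290291-94291247) overlapped a coding exon at chr11:94290364-94290490 and the introns beside it. The score of 11.05 ranked 1313, so the peaks of these calcium channel genes lay near opposite ends of the list.

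Of the sodium channel pores, only *Scn1a* held a peak. *Scn1a* (chr2:66108838-66278897, minus strand) encodes a neuronal sodium channel pore whose loss of function causes epilepsy. The peak (chr2:66247854-66248349, score 18.63, rank 740) had its midpoint 20 bp downstream of an internal protein-coding start at position 66248121, and covered the non-coding first exon of that transcript (chr2:66247919-66248121), which is annotated as 5′ UTR. It was 30.8 kb downstream of the outermost start of the gene. The ratio of observed to expected CpG was 0.58, the highest of the 7 peaks (range 0.13 to 0.58) and above the median of all 1427 peaks (0.28). Every other of the 7 peaks lay below that overall median, and the median of the 7 was 0.205. Its GC content, 43.3%, was the lowest of the 7. *Scn1a* lies in a cluster of sodium channel genes on chromosome 2, and this same peak was also the nearest to *Scn9a*, *Scn7a*, *Scn2a1* (the annotation's name for *Scn2a*) and *Scn3a*, at distances of up to 842 kb.

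Of 42 entries counted as voltage-gated potassium channel pores, silent subunits such as *Kcns2* and *Kcng3* among them, *Kcnh6* alone held a peak (2.38%, beside 2.63% of all genes). *Kcnh6* (chr11:105869438-105895863, plus strand) encodes an Erg-type channel, a family that shapes repolarisation. The midpoint of its peak (chr11:105874760-105875443) was 14 bp downstream of an internal start at position 105875087 and 5.66 kb downstream of the outermost start. The peak covered a short non-coding first exon (chr11:105875087-105875112) and reached the first bases of the next exon. Its score of 11.45 ranked 1297. The nearest peaks of *Scn1a* and *Kcnh6* were thus both at alternative starts and not at the outermost start of the gene.

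Auxiliary subunits held the other 3 peaks. *Kcnip3* (chr2:127282234-127347830, minus strand) encodes a calcium-binding protein, also called calsenilin or DREAM, that modulates A-type potassium channels and can repress transcription. Its peaks lay in intron 1 (chr2:127337058-127337706, score 52.93, rank 33), 9.73 kb from the nearest TSS, and in intron 5 (chr2:127288043-127288321, score 18.91, rank 723), 20.1 kb from the nearest TSS. From the outermost start they lay 10.4 and 59.6 kb away. No other channel gene held 2 peaks. Among 1648 genes between 0.8 and 1.25 times the length of *Kcnip3*, 7 (0.425%) held at least as many. This share belongs to the entry with the highest count, not to one picked beforehand. For the other channel genes with a peak, it ran from 2.73% (*Kcnh6*) to 12.2% (*Cacna1c*). *Kcnab2* (chr4:151764851-151851980, minus strand) encodes a cytoplasmic beta subunit of Shaker-type channels. Its peak (chr4:151779873-151780968, score 21.8, rank 556) lay in intron 6, 42.5 kb from the nearest TSS, and at 1096 bp it was the widest of the 7. The inward rectifier and two-pore genes, which set the resting potential, held 0 peaks in 29 entries, which allows a share of up to 10.3%, above the 2.63% of all genes. The 8 calcium- and sodium-activated entries held 0 as well, too few entries to set against that share.

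**Figure D1:**
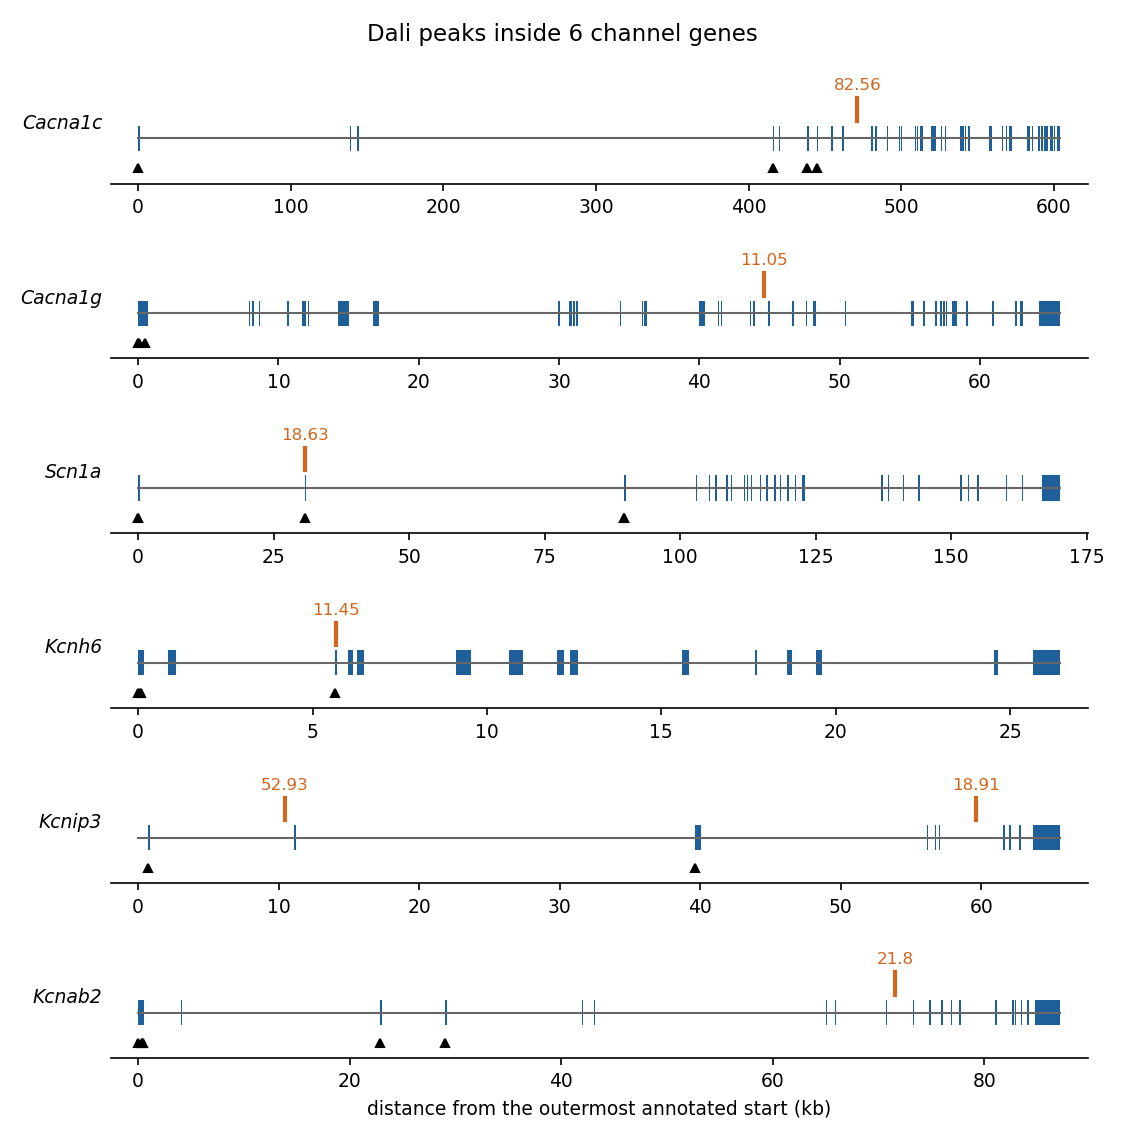
Positions of the 7 *Dali* peaks in the 6 channel genes that hold a peak. The x axis gives the distance from the outermost annotated start in kb, on a separate scale for each gene, read in the direction of transcription. Blue boxes are exons of protein-coding transcripts (the thinnest are widened to be visible), black triangles protein-coding TSSs, and orange bars peak midpoints with their score. The peaks of *Scn1a* and *Kcnh6* stand over an internal TSS, and the peak of *Cacna1c* stands 26.4 kb past its innermost TSS.

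Across the 7 peaks, 4 lay wholly within introns. Their scores ran from 11.05 to 82.56 with a median of 18.91, beside 19.11 for all 1427 peaks, and 3 of the 7 were above that overall median. The median width was 649 bp, beside 637 bp for all peaks. The GC content ran from 43.3% to 55.6% with a median of 54.8%, beside 51.1% for all peaks, and in 5 of the 7 it was above the mean of the flanking regions, with *Cacna1c* and *Scn1a* the exceptions, beside 83.8% of the 1423 peaks with both flanks. It was above both flanks in 2 of the 7, beside 68.2% of those peaks. The plot of score against GC content shows these peaks spread among the others of the list.

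**Figure D2:**
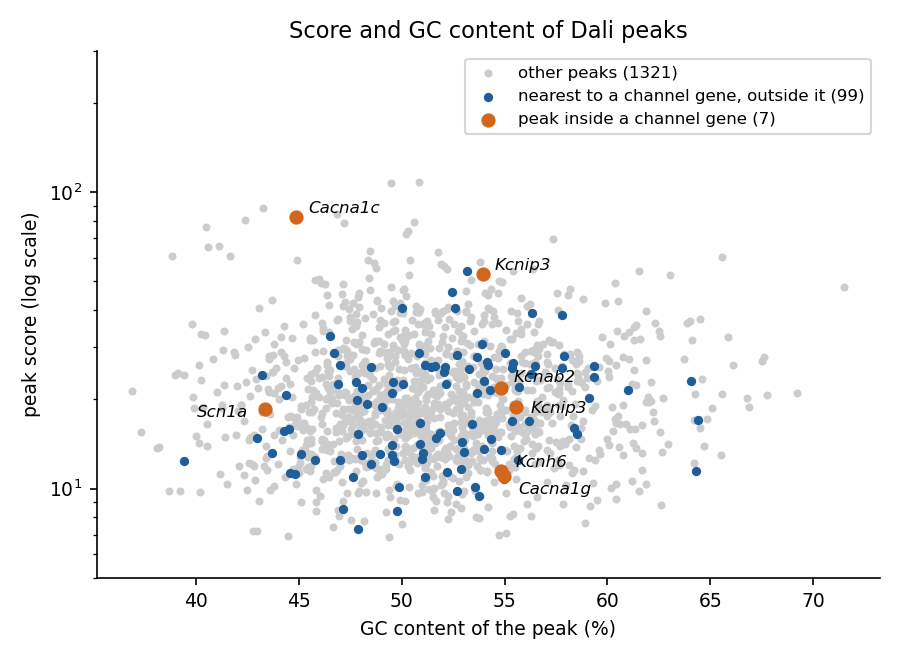
Score (y axis, log scale, unit not named) against GC content (x axis, %) of the 1427 *Dali* peaks. Orange points are the 7 peaks inside channel genes, blue points the 99 other peaks that are nearest to a channel gene, and grey points the remaining peaks. *Cacna1c* and *Kcnip3* hold the highest of the orange scores, 82.56 and 52.93.

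A peak midpoint inside the gene was found for 6 of 137 entries, or 4.38% (95% Wilson interval 2.02 to 9.23%), where 2.63% of all protein-coding genes held one. Channel genes are longer than most genes, with a median length of 37.1 kb beside 15.4 kb, and long genes hold more peaks. Genes were therefore compared within 5 classes of length. From the number of peaks per gene in each class, 7.82 peaks were expected inside the 137 entries and 7 were observed, a ratio of 0.896 (exact Poisson 95% interval 0.36 to 1.85). Expected at the same rates were 6.46 genes with a peak, beside the 6 observed. Set beside genes of the same length, the count of channel genes with a peak was thus no higher.

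The length classes differed in their direction. Of 35 channel genes 30 to 100 kb long, 3 held a peak (8.57%, Wilson interval 2.96 to 22.4%), beside 3.94% of all genes of that length. Of 41 channel genes of 100 kb and over, 2 held a peak (4.88%), beside 9.50% of 2400 such genes. Each interval of the channel genes included the share of all genes in its class. Among the 17 entries of 300 kb and over, 16 held no peak. They included *Kcnip4*, a relative of *Kcnip3* and the longest member at 1135 kb, the calcium channel alpha2delta subunit gene *Cacna2d3* (817 kb), the M-type potassium channel gene *Kcnq5* (564 kb) and the A-type channel gene *Kcnd2* (514 kb). Among genes of lengths like that of *Kcnd2*, 30 of 183 (16.4%) held a peak, beside 21 of 146 (14.4%) for *Kcnq5*, 6 of 48 (12.5%) for *Kcnip4* and 5 of 65 (7.69%) for *Cacna2d3*. In all, the channel genes held 0.448 peaks per Mb of gene, beside 0.646 per Mb over all genes. These rates were not taken within length classes, where the ratio of observed to expected peaks was 0.896 (interval 0.36 to 1.85).

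**Figure D3:**
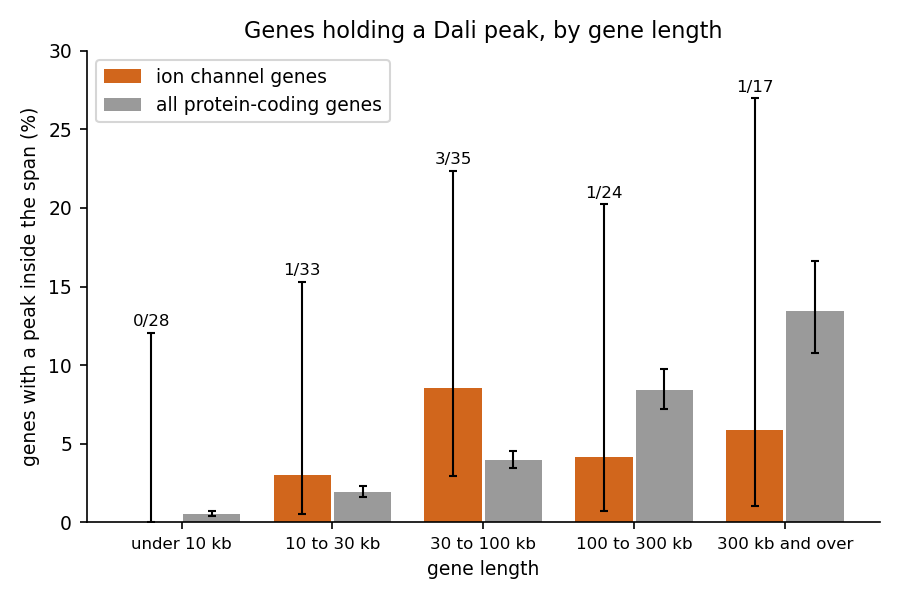
Share of genes that hold at least 1 peak midpoint (y axis, %) in 5 classes of gene length (x axis), for channel genes (orange) and all protein-coding genes (grey). Error bars are 95% Wilson intervals over genes, and the fractions above the orange bars give channel genes with a peak over channel genes in the class. The orange bar is the higher in the class of 30 to 100 kb (8.57% against 3.94%) and the lower at 300 kb and over (5.88% against 13.4%).

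Peaks at the starts of channel genes were found for *Kcnh6* and *Scn1a* alone. Within 1 kb of a TSS, a peak midpoint was found for 2 of 137 entries (1.46%), beside 1.87% of all genes. The count stayed the same at 5 kb, beside 2.64% of all genes. *Kcnip3* brought it to 3 (2.19%) at 10 kb, beside 3.68% of all genes. When only the outermost annotated start of each gene was used, 0 of 137 channel genes had a peak within 5 kb, beside 2.35% of all genes. A count of 0 allows a share of up to 2.19% by 3 counts and 2.73% by the Wilson interval. The 2.35% of all genes lies between these limits, so whether channel genes differ from all genes was not settled. Both starts with a peak within 5 kb were therefore internal ones.

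A TSS of 20 entries lay within 100 kb of a peak (14.6%, Wilson interval 9.65 to 21.5%), beside 18.4% of all genes. Apart from the 6 genes already described, these included channels of other potassium and calcium families. *Kcnc4*, of the Shaw-related channels, had one 22.3 kb downstream of its start (score 13.22) between genes. *Kcnn1*, a small-conductance calcium-activated channel, had one 40.8 kb upstream with a score of 46.07, rank 54. For 15 of the 20 entries the peak was nearer to a TSS of another gene than to the channel gene. This share was not taken over all genes, of which 4111 lay within 100 kb of a peak. These genes outnumber the 1427 peaks, so for most of them the nearest peak must also lie nearer to another gene.

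The rest of the 20 included pores, silent subunits and auxiliary subunits. *Kcnn4*, the intermediate-conductance calcium-activated channel, *Kcne1*, an auxiliary subunit of the slow cardiac potassium current, and *Kcns2*, an electrically silent modulatory subunit, had their nearest peaks at 36.8, 41.0 and 42.0 kb. The acid-sensitive two-pore channel *Kcnk3*, the silent subunit *Kcng3* and the T-type calcium channel *Cacna1i* followed at 50.1, 67.7 and 67.8 kb. The calcium channel beta subunit *Cacnb4*, the two-pore channel *Kcnk18*, the sodium channel beta subunit *Scn3b*, the Shaker-related *Kcna10* and the ether-à-go-go channel *Kcnh1* lay between 69.1 and 97.7 kb. The scores of these 20 nearest peaks ran from 9.81 to 82.56 with a median of 19.2. 9 of the peaks lay between genes and 5 lay within another gene, such as *Gramd1b* for *Scn3b*.

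Over all 137 entries the median distance from a TSS to the nearest peak midpoint was 393 kb, with quartiles of 177 and 1222 kb. Over all protein-coding genes the median was 494 kb, with quartiles of 153 and 1426 kb. More than 1 Mb away were 39 of the channel genes (28.5%), beside 33.1% of all genes. The distances of neighbouring genes are not independent. The 137 entries shared 105 nearest peaks, and 24 of these peaks served 56 entries, among them a peak in an intron of *Tex2* for *Cacng1*, *Cacng4* and *Cacng5* and a peak at *Hbxip* for *Kcna10*, *Kcna2* and *Kcna3*. The peak lay upstream of the TSS for 60 entries and downstream for 77.

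**Figure D4:**
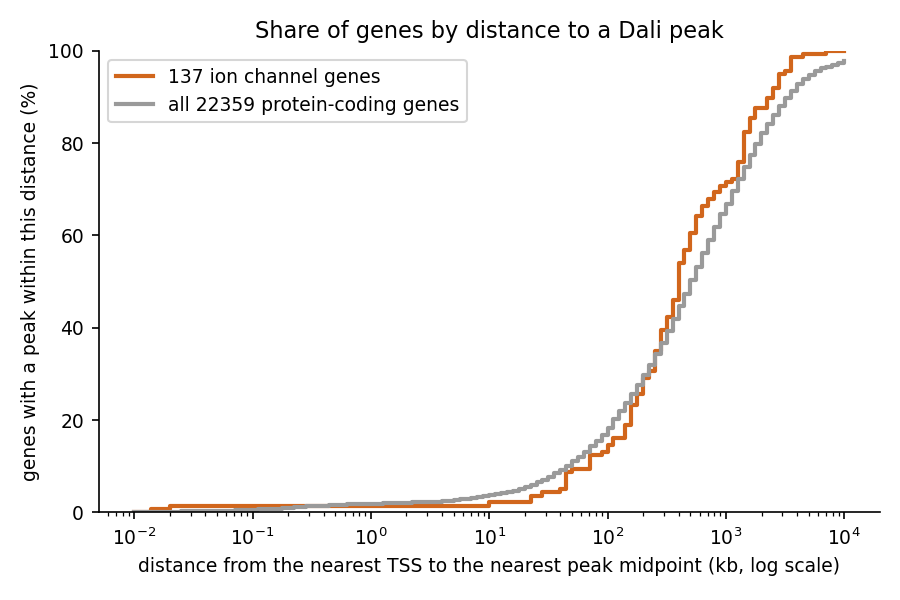
Share of genes (y axis, %) with a *Dali* peak midpoint within a given distance of a TSS (x axis, kb, log scale), for 137 channel genes (orange) and 22359 protein-coding genes (grey). The orange line lies below the grey line at 100 kb (14.6% against 18.4%) and above it at 500 kb (60.6% against 50.3%).

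Families differed widely among their own members. In the pore-forming calcium channel family, distances ran from 26.4 kb (*Cacna1c*) to 2.81 Mb (*Cacna1s*, the skeletal muscle channel). In the alpha2delta family, which includes the targets of gabapentin, they ran from 245 kb (*Cacna2d2*) to 4.06 Mb (*Cacna2d1*), and in the calcium channel beta family from 69.1 kb (*Cacnb4*) to 1.33 Mb (*Cacnb2*). The *Cacng* genes, which include regulators of AMPA receptors, began at 137 kb (*Cacng2*, stargazin) and reached 1.34 Mb (*Cacng5*). 6 of these 8 genes were more than 1 Mb from a peak, beside 33.1% of all genes. The 6 were not independent. *Cacng1*, *Cacng4* and *Cacng5* shared the peak in *Tex2*, and *Cacng6*, *Cacng7* and *Cacng8* shared a peak between genes on chromosome 7. The sodium channel pores ran from 0.02 kb (*Scn1a*) to 1.64 Mb (*Scn10a*, a channel of sensory neurons). The nearest of the sodium beta subunits was *Scn3b*, at 81.7 kb.

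The potassium channel families had equally wide ranges. The Shaker-related family ran from 96.0 kb (*Kcna10*) to 1.29 Mb (*Kcna4*) and the *Kcnh* family from 0.014 kb (*Kcnh6*) to 2.92 Mb (*Kcnh5*). The auxiliary *Kcne* family kept within 41.0 kb (*Kcne1*) and 479 kb (*Kcne4*). The inward rectifiers ran from 112 kb (*Kcnj15*) to 2.69 Mb (*Kcnj3*) and the two-pore channels from 50.1 kb (*Kcnk3*) to 2.71 Mb (*Kcnk12*). The farthest entry of all was *Kcnab1*, a relative of *Kcnab2*, at 6.32 Mb. By the score of the nearest peak, *Cacna1c* and *Cacna2d4* (511 kb from the same peak) came first, followed by *Kcng4* with a score of 54.02 at 543 kb, *Kcnip3* and *Kcnn1*.

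**Figure D5:**
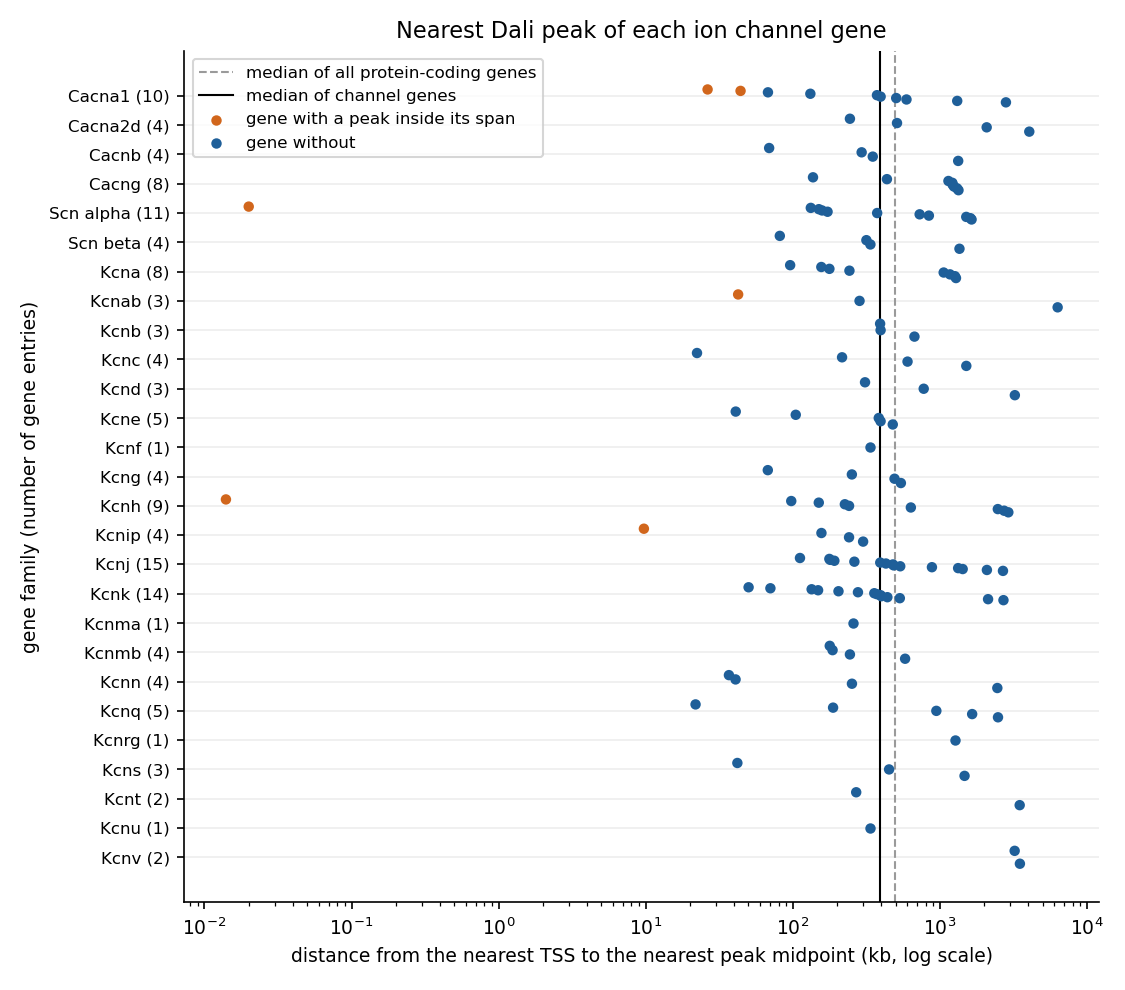
Distance from the nearest TSS to the nearest *Dali* peak midpoint (x axis, kb, log scale) for each of the 137 entries, by gene family (y axis, number of entries in parentheses). Orange points are the 6 genes with a peak inside, and vertical lines mark the median of the channel genes (solid, 393 kb) and of all protein-coding genes (dashed, 494 kb). *Kcnh6* and *Scn1a* stand apart at under 1 kb.

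The study's methods assign a peak to a gene by a regulatory region, which runs from 5 kb upstream to 1 kb downstream of the start (the basal region) and is extended by up to 1 Mb until it meets the region of the neighbouring gene. With the region built on the outermost start of each gene, 15 entries were bound (10.9%, Wilson interval 6.75 to 17.3%), beside 9.14% of all genes. They were *Cacna1g*, *Scn1a*, *Scn8a*, *Scn3b*, *Kcnh6*, *Kcnh7*, *Kcnc4*, *Kcng3*, *Kcns2*, *Kcne1*, *Kcne2*, *Kcnj15*, *Kcnk3*, *Kcnk9* and *Kcnma1*, the last being the large-conductance calcium-activated channel. *Cacna1c*, *Kcnip3* and *Kcnab2*, which hold the highest scores of peaks inside channel genes, were not bound under it. With that start, 0 of 137 entries had a peak in the basal region alone, beside 2.13% of all genes, so these assignments came from the extension. The peaks of *Kcnh6* and *Scn1a* lie within 1 kb of internal starts, around which no basal region was drawn here.

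Sequence words were searched on both strands over each whole peak. A CTCF consensus match with at most 1 mismatch was present in 2 of the 7 peaks inside channel genes (*Scn1a* and the intron 5 peak of *Kcnip3*) and in 20 of the 105 nearest peaks (19.0%), beside 273 of all 1427 peaks (19.1%) and 6.84% of 2850 flanking regions of the same widths. The octamer ATGCAAAT was present in 1 of the 7 peaks and in 4 of the 105 (3.81%), beside 3.85% of all peaks and 4.00% of flanking regions. The GC box GGGCGG was present in 1 of the 7, where it overlaps the CTCF match of *Kcnip3*, and in 38.1% of the 105, beside 31.5% of all peaks and 10.9% of flanking regions. The element of REST, a repressor of neuronal genes, was searched as CAGCACC and GGACAG with 2 bases between them and at most 1 mismatch. It was found in none of the 7 peaks and none of the 105, beside 0.420% of all peaks and 0.456% of flanking regions. These shares are too low for its absence from so few peaks to be set against them. An exact CTCF consensus match was present in 1 of the 7 peaks, that of *Scn1a*, and in 10 of the 105 nearest peaks (9.52%), beside 6.80% of all peaks.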

How the data were processed

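Reads of 50 bp from 3 CHART-Seq pull-downs of *Dali* in N2A cells were mapped to mm9 with Bowtie. Peaks were called with MACS2 against input DNA and against *lacZ* pull-downs, and the authors deposited the peaks found in both comparisons with 1 score per peak, combined over the pull-downs. Tool versions are not given in the sources used here. The score served only to rank and filter peaks.

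Gene positions came from GENCODE M1. Of 22380 protein-coding entries, 13 mitochondrial entries and 8 without a protein-coding TSS were left out. Distances run from the peak midpoint to the nearest protein-coding TSS, and a peak is inside a gene if its midpoint is. Expected counts use the mean number of peaks per gene in 5 length classes. Shares have 95% Wilson intervals, and a count of 0 was bounded by 3 counts. No test was run. The functions were tested on simulated peaks and planted words. The software was Python (3.11.15) with pysam (0.24.0) for sequence, pandas (2.3.3) and numpy (2.4.6) for tables, scipy (1.17.1) for intervals and matplotlib (3.10.9) for plots.

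The members and lists were chosen with earlier results of these data known. Genes were named by rule: every member with a peak inside its span or within 10 kb of a TSS, the nearest and the farthest member of the larger families, the 5 members whose nearest peak scored highest, and listed genes of other excitability groups with a peak inside or within 5 kb. The members within 100 kb of a peak, those bound by the regulatory region and the long members without a peak were named in addition, after their values were seen. Alternatives changed the score minimum, the set of starts, the merging of peaks within 10 kb, the definition of inside, the length classes and the members used. Counting each symbol once and leaving out the X chromosome were added after seeing the data. Some members named by this rule are not reported here. Expression and methylation measurements were not analysed here.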

Additional observations from a re-analysis of the deposited data

How the results depend on the processing

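Of 68 alternative values, 62 moved by less than the counting interval or the range of the main value and 6 moved further. For the median score and the median GC content, that range was set by the 7 peaks inside channel genes. Their alternatives used the same peaks or a part of them, so these values could not move further and do not show stability. Keeping only peaks with a score at or above the median raised the median distance of channel genes to 969.7 kb (1003.92 kb for all genes). It lowered the share within 100 kb of a TSS to 7.299% (10.5% for all genes) and the share within 5 kb to 0% (1.38% for all genes). The share bound by the regulatory region fell to 2.92%, and was not taken for all genes under this setting. Fewer peaks enter under this setting by construction. With only the outermost start of each gene the share within 5 kb was 0%. The peaks of *Kcnh6* and *Scn1a* lie at internal starts, which this setting does not use. With the basal region alone the share bound was 0%, because every bound entry had been assigned through the extension. The ratio of observed to expected peaks inside channel genes ran from 0.693, in proportion to gene length, to 1.015, for voltage-gated pore-forming subunits alone. Without *Cacna1c* it was 0.7868. Leaving out a pull-down could not be done, since the list combines them. No paired analysis was possible because the list holds no value per pull-down. The unknown depth limits what the absence of a peak at a channel gene can show.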

Other observations

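Genes of 4 other groups that act with these channels were looked up in the same way, and 57 of 58 were found in the annotation used. A peak lay inside 3 of them (5.26%, beside 2.63% of all protein-coding genes). This share was not compared within classes of gene length. The 3 genes, *Dpp6*, *Ank3* and *Glra1*, are 910, 493 and 94.0 kb long. Of all genes of 300 kb and over, 13.4% held a peak, beside 0.519% of those under 10 kb. *Ank3*, which encodes the ankyrin that gathers sodium channels at the axon initial segment, held a peak at chr10:69321503-69322198 (score 11.35, rank 1300). *Dpp6*, an auxiliary subunit of A-type potassium channels, held one at chr5:28032742-28033425 (score 20.19, rank 653), 445 kb from its nearest TSS. *Glra1*, a glycine receptor subunit, held one at chr11:55332271-55332991 (score 14.08, rank 1085). Within 5 kb of a TSS, 0 of the 57 genes had a peak, which allows a share of up to 5.26%, beside 2.64% of all genes. Within 100 kb, 8 of the 57 had a peak (14.0%, beside 18.4% of all genes), and 7 were bound by the regulatory region (12.3%, beside 9.14%). The 4 HCN channel genes, which carry the pacemaker current, and the 16 ionotropic glutamate receptor genes held 0 peaks, too few genes to set against the 2.63% of all genes.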
